A study of Mus musculus with 12 samples.

Results

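The expression of 10 genes for growth factor receptor tyrosine kinases was described in mouse lung tumors and in normal mouse lung. The genes were chosen by symbol as members of this family, with earlier results of these data known. They are Egfr, Erbb2 and Erbb3 of the EGF receptor family, Met, Kit, Ret, the FGF receptors Fgfr1 and Fgfr2, the IGF receptor Igf1r and the PDGF receptor Pdgfra. All 10 were found among the 30399 genes of the table, and all 10 were among the 23674 genes tested. The study made mouse models of lung cancer by delivering CRISPR/Cas9, a nuclease that cuts DNA at a chosen site, without a virus, and measured messenger RNA by poly-A RNA sequencing. The groups are 5 samples labelled normal lung and 7 labelled tumor. The labels give no strain, age, genotype or treatment for either group, and do not say which genes were cut in which tumor or whether the normal lungs had received the nuclease. Tumors 3 and 4 share the number 159 in their titles and tumors 5, 6 and 7 the number 201, so the 7 tumors carry 4 distinct numbers, and the titles of tumors 1 and 7 hold a word for trachea. Whether samples came from separate animals is not stated, so the p-values below measure only the spread between these samples, which may be partly technical.

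Receptor tyrosine kinases sit in the cell membrane. When a growth factor binds outside the cell, receptors come together, phosphorylate each other on tyrosines and recruit adaptor proteins that switch on the RAS-ERK and PI3K-AKT pathways, which promote growth, survival and migration. In the lung, FGFR2 and its ligand FGF10 are needed for branching and for alveolar epithelium, PDGFRA marks mesenchymal cells, MET and the EGF receptor family act in epithelial repair, and KIT is made by mast cells and by part of the capillary endothelium. KIT is also often made by small cell lung carcinoma, a neuroendocrine tumor.

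Recovered depth was 11126432 to 17032234 reads assigned to genes in the normal lungs and 13093843 to 24217633 in the tumors. Levels are given as normalized counts, that is, reads divided by a size factor for each library, and 3 reads correspond to at most 4.85 normalized counts in a normal lung and 3.57 in a tumor. The labelled tissues were checked against marker genes. Neuroendocrine markers (Chga, Syp, Insm1 and Calca) summed to 73.4 to 100.1 normalized counts in normal lungs and to 19210 to 86300 in tumors, and 4 of 4 were called higher in tumor. Markers of alveolar type 1 cells summed to 56810 to 107200 in normal lungs and 1162 to 2834 in tumors, those of alveolar type 2 cells to 178200 to 315500 and 869 to 6559, and those of endothelial cells to 49970 to 61740 and 672 to 4498. In all 3 lists 5 of 5 markers were called lower. In bulk tissue, fewer cells of a type and less RNA per cell cannot be told apart, and this holds for each receptor below. Genes of the Y chromosome were read in 4 of the 5 normal lungs and, at a similar level, only in tumor 1 among the 7 tumors, so Y-linked expression and tissue are partly confounded.

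Most of the receptors were lower in tumors. A gene was called lower or higher at a limma adjusted p under 0.05 with a log2 fold change, tumor against normal lung, of at least 1 in size on the log2(value + 1) scale. By this rule 7 of the 10 receptors were called lower (Egfr, Erbb2, Erbb3, Met, Fgfr2, Igf1r and Pdgfra), 0 were called higher, and 3 were not called (Kit, Ret and Fgfr1). Over all genes tested, 24.5% were called lower and 24% higher. The same 7 receptors had every tumor below every normal lung, which was the case for 18.4% of all genes tested. The median log2 fold change of the 10 receptors was -2.29, beside 0.04 over all genes tested. Tumors also differed among themselves more than normal lungs did. For 10 of 10 receptors the SD of log2 values was larger among the 7 tumors than among the 5 normal lungs. In tumors it ran from 0.27 for Fgfr2 to 1.68 for Met, beside 0.22 and 0.082 in normal lungs. The share of all genes with a larger SD in tumors was not computed, so this trait is not shown to be particular to the receptors.

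**Figure D1:**
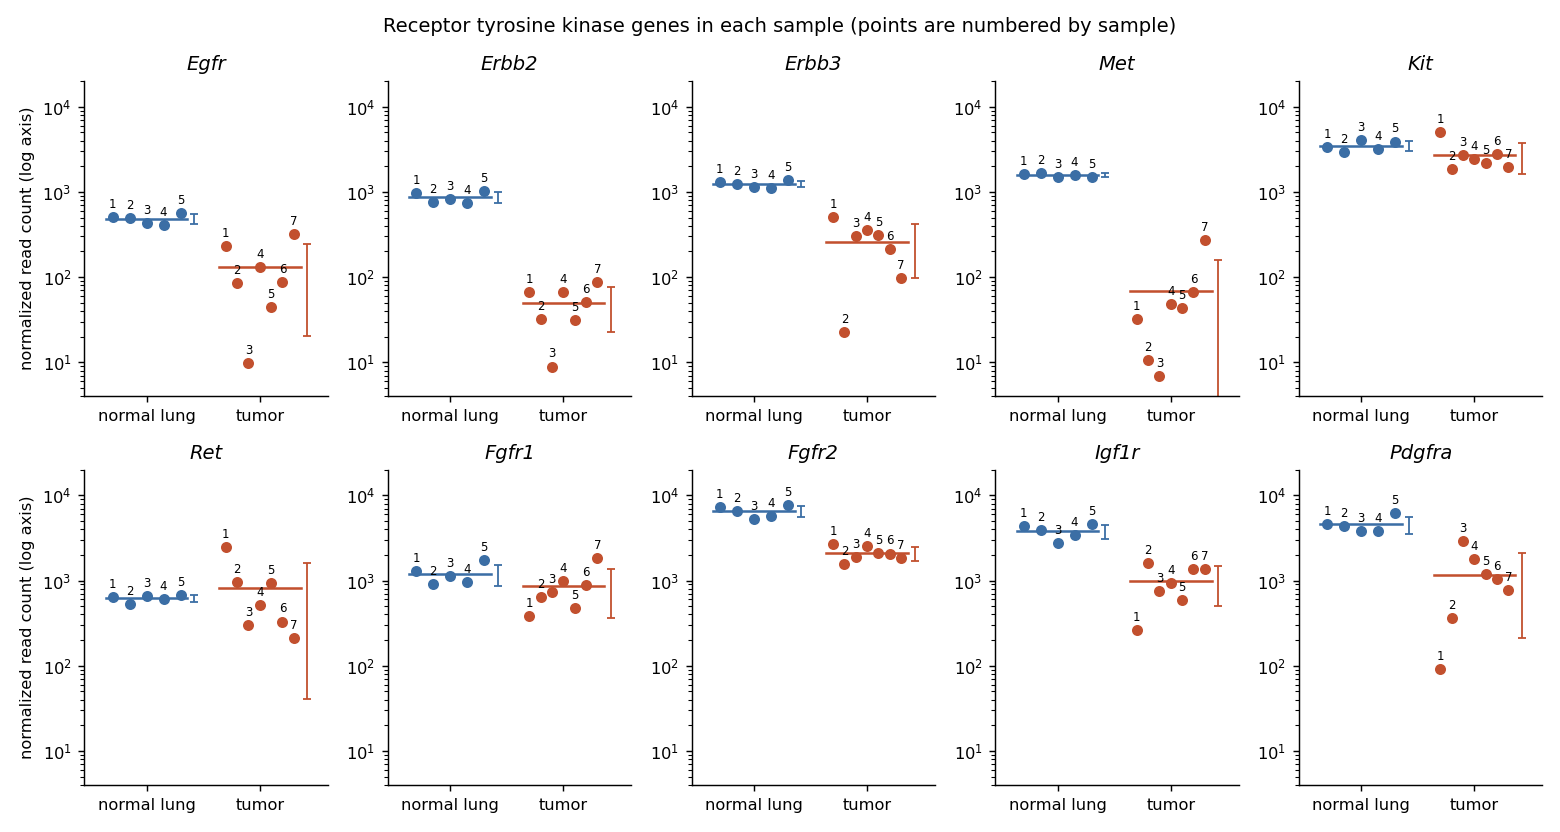
Normalized read counts (vertical log axis) of the 10 receptor genes in 5 normal lungs (blue) and 7 tumors (red). Each point is a sample with its number, horizontal lines are group means and side bars are ± 1 SD. For Met and Ret in tumors the lower arm is cut short of 1 SD so that it stays above 0, and that of Met runs off the axis. Met and Erbb2 lie far below normal lung in every tumor, and Kit and Ret have tumors on both sides of the normal range.

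Sequence upstream of the start of transcription is shown for some of the receptors that were called and for one that was not. Promoter sequence was available for 7 of the 10 receptors (RefSeq, build GRCm38.p6, which is older than the GRCm39 build in the submitters' processing notes). The stretches are those of Met and Erbb2, the receptors that fell most, and of Kit, which was not called. Each is printed 5′ to 3′ up to the first annotated exon base. Capitals mark a GC box, the letters GGGCGG or, on the other strand, CCGCCC, a motif known to be bound by SP1-type factors.
Met, chr6:17463707-17463799, plus strand: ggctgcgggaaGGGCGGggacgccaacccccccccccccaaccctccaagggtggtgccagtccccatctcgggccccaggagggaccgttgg
Erbb2, chr11:98412234-98412469, plus strand: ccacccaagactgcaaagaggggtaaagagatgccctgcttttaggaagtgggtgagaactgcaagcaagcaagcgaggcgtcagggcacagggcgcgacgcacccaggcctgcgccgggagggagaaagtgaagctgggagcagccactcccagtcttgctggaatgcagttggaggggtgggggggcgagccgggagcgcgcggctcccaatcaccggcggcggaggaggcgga
Kit, chr5:75574737-75574915, plus strand: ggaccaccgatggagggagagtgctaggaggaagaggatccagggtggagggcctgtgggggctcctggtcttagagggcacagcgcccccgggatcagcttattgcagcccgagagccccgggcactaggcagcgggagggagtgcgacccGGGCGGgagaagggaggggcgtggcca
All 3 are rich in G and C. The full windows of 250 bases had a GC content of 74% for Met, 66% for Erbb2 and 70.8% for Kit. The median over 32851 promoter windows of that length was 52.4%. These windows run past the first annotated exon base, since the printed stretches hold only 93 bases for Met, 236 for Erbb2 and 179 for Kit. Window values thus partly describe exon sequence, and the Met window had 3 GC boxes against 1 in its printed stretch. A GC box stood in the window of 4 of the 7 receptors, the overlapping windows of Kit counted once, and in 32.7% of all windows. A TATA box (TATAAA on either strand) was found for 0 of the 7 receptors and in 12.4% of all windows. Met, which fell, and Kit, which was not called, both had a GC box in the printed stretch.

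In the EGF receptor family Egfr, Erbb2 and Erbb3 were all called lower. Egfr (ENSMUSG00000020122), the receptor for EGF, TGF-alpha and amphiregulin, had 512, 496, 431, 405 and 560 normalized counts across normal lungs 1 to 5. Tumors 1 to 7 had 234, 85.8, 9.91, 132, 44.5, 86.9 and 323. All tumors lay below all normal lungs, but tumor 3 was nearly empty of Egfr, with 10 reads, while tumor 7 kept the most. The mean went from 481 ± 62.6 (SD, n = 5) to 131 ± 111 (SD, n = 7), a log2 fold change of -2.46 (SE 0.65, limma adjusted p = 0.00519). With Y-linked expression as a covariate the log2 fold change of Egfr was -1.86 and no longer passed (limma adjusted p = 0.0864).

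Erbb2 (ENSMUSG00000062312) encodes the partner receptor of the family, which has no known ligand of its own. Normal lungs 1 to 5 had 971, 760, 817, 745 and 1015 normalized counts, and tumors 1 to 7 had 66.5, 32.2, 8.92, 66.5, 31.6, 50.5 and 87.1. The highest tumor was far below the lowest normal lung. Erbb2 went from 862 ± 124 (SD, n = 5) to 49.0 ± 26.6 (SD, n = 7), a log2 fold change of -4.36 (SE 0.45, limma adjusted p = 2.17e-06), or 20.5-fold lower as fitted. Erbb3 (ENSMUSG00000018166), a neuregulin receptor with little kinase activity that signals through its partners, had 1299, 1234, 1143, 1124 and 1370 normalized counts across normal lungs 1 to 5 and 504, 22.6, 305, 360, 315, 215 and 97.4 across tumors 1 to 7. Erbb3 thus kept more of its level than Erbb2 in most tumors, with tumor 2 as the lowest. It went from 1234 ± 104 (SD, n = 5) to 260 ± 163 (SD, n = 7), a log2 fold change of -2.70 (SE 0.60, limma adjusted p = 0.00164).

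The ligands of this family moved in both directions, as all genes tested did, of which 24% were called higher and 24.5% lower. Of 11 EGF family ligands tested, 4 were called higher and 3 lower, with a median log2 fold change of 0.24. Among those higher was Epgn, looked at after its values were seen (limma adjusted p = 0.0471). It was at or under 3 reads in 5 normal lungs and 3 tumors, and edgeR called 3 ligands higher. Those lower included Hbegf (-2.87, SE 0.25, limma adjusted p = 4.22e-07) and Areg (-3.24, SE 0.74, limma adjusted p = 0.00184), ligands of the EGF receptor. Those higher included 2 neuregulins, Nrg1, whose product is a ligand of ERBB3 and ERBB4, and Nrg3, whose product is a ligand of ERBB4. Nrg1 had 223 to 380 normalized counts in normal lungs and 618 to 5488 in tumors, with a median of 1714 (log2 fold change 2.65, SE 0.42, limma adjusted p = 1.09e-04). Nrg3 had 0 to 6.90 normalized counts in normal lungs, 4 of which had 3 reads or fewer, and 347 to 2715 in tumors (log2 fold change 9.44, SE 0.62, limma adjusted p = 3.08e-08). The size of this change depended on the setting and ran from 6.85 to 11.56 over 24 alternatives, and all called Nrg3 higher. Egf itself rose from 48.5 ± 22.9 (SD, n = 5) to 222 ± 57.6 (SD, n = 7). Tgfa had a log2 fold change of -0.43 and was not called (limma adjusted p = 0.399).

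The remaining receptor of the family, Erbb4, was looked at after its values were seen. It was called higher (log2 fold change 3.11, SE 0.85, limma adjusted p = 0.00627), but with 25.3 normalized counts in tumor 1, below the 5 normal lungs (32.3 to 67.8), and 2678 in tumor 5. The call was lost with the Y-linked covariate (log2 fold change 1.85, limma adjusted p = 0.151).

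Met had the largest decrease of the 10 receptors. Met (ENSMUSG00000009376) encodes the receptor for hepatocyte growth factor. Its normal lung values were close together, at 1639, 1685, 1486, 1563 and 1486 normalized counts, while tumors 1 to 7 had 32.3, 10.7, 6.94, 48.5, 43.7, 67.4 and 269. Tumor 7 was the highest and tumor 3, with 7 reads, the lowest, 38.8-fold apart. Met went from 1572 ± 89.5 (SD, n = 5) to 68.4 ± 91.0 (SD, n = 7), a log2 fold change of -5.35 (SE 0.67, limma adjusted p = 1.41e-05). Its ligand Hgf, made mainly by mesenchymal cells, was lower as well. It had 98.8 to 232 normalized counts in normal lungs and 1.19 to 44.8 in tumors (log2 fold change -4.19, SE 0.73, limma adjusted p = 2.50e-04), with 2 tumors at or under 3 reads.

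Kit was not called. Kit (ENSMUSG00000005672), the receptor for stem cell factor, had 3384, 2962, 4073, 3154 and 3901 normalized counts across normal lungs 1 to 5 and 5036, 1839, 2717, 2433, 2187, 2768 and 1938 across tumors 1 to 7. Tumor 1 lay above every normal lung and the other 6 below every normal lung, so that no tumor fell within the normal range. The means were 3495 ± 477 (SD, n = 5) and 2703 ± 1089 (SD, n = 7), and the log2 fold change of -0.44 (SE 0.22, 95% interval -0.91 to 0.03) did not pass (limma adjusted p = 0.0963). Without tumor 1 the log2 fold change was -0.60 with a limma adjusted p of 0.00424, which passes on p but is short of the fold limit. The gene for its ligand, Kitl, was called lower (log2 fold change -1.97, SE 0.53, limma adjusted p = 0.00584). Kitl was 2822 to 4705 normalized counts in normal lungs, and its highest tumors were tumor 1 at 3174 and tumor 7 at 2659 against 274 in tumor 3. The call of Kitl was lost with the Y-linked covariate (log2 fold change -1.23, limma adjusted p = 0.135).

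KIT is also made by mast cells and endothelium, so their markers are given beside it. Mast cell markers (Cpa3, Mcpt4, Cma1, Tpsb2 and Fcer1a) summed to 145 to 288 normalized counts in normal lungs and to 24.7, 4.77, 0.991, 54.8, 2.43, 38.4 and 1435 in tumors 1 to 7. In tumor 3, where Kit stood at 2717 normalized counts, 4 of the 5 mast cell markers were at 0 and Tpsb2 had a single read. In tumor 7, which had the most mast cell marker reads, Kit was 1938. Endothelial markers summed to 672, 2660, 708, 2225, 1592, 1870 and 4498 across tumors 1 to 7, all below the normal lungs. The part of these cells in the Kit values was not tested.

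Ret spread more widely than its mean shows. Ret (ENSMUSG00000030110), the receptor for ligands of the GDNF family, which it binds through GFRA co-receptors, had 644, 530, 651, 609 and 683 normalized counts across normal lungs 1 to 5. Tumors 1 to 7 had 2447, 965, 298, 520, 946, 331 and 211, with 3 above and 4 below every normal lung. The means were 623 ± 58.3 (SD, n = 5) and 817 ± 781 (SD, n = 7), and the log2 fold change of -0.079 (SE 0.49, 95% interval -1.14 to 0.98) was not called (limma adjusted p = 0.897). The sign of this change depended on the setting: it was 0.38 in edgeR and 0.13 with columns scaled to equal totals. Among its partners the co-receptors divided. Gfra1 (-2.56, SE 0.25, limma adjusted p = 1.25e-06) and Gfra2 (-2.14, SE 0.79, limma adjusted p = 0.0298) were called lower. Gfra4 was called higher, from 37.0 ± 7.30 normalized counts (SD, n = 5) to 1257 ± 922 (SD, n = 7), a log2 fold change of 4.79 (SE 0.39, limma adjusted p = 2.66e-07). The call of Gfra2, whose lowest tumor was tumor 2 at 7.15, was lost with the Y-linked covariate and when normal lung 1, 3 or 5 was left out (limma adjusted p = 0.0583, 0.0510 and 0.0567). Of the ligands, Gdnf had 287 to 425 normalized counts in normal lungs and 0.991 to 13.8 in tumors (log2 fold change -6.10, SE 0.43, limma adjusted p = 5.87e-08), and Artn was called lower too (-3.04, SE 0.61, limma adjusted p = 7.13e-04). Nrtn had the highest mean count of the RET ligands in tumors, without division by gene length. It had 113.8 to 134.1 normalized counts in normal lungs and 111.9 to 447.1 in tumors, with tumor 6 the lowest. The log2 fold change of Nrtn was 0.93 (limma adjusted p = 0.0262), just short of the fold limit. Nrtn was called higher in 9 of 24 alternatives, edgeR among them (1.09). In all, 6 of the 10 genes of the list of MET, KIT and RET ligands and RET co-receptors were called lower and 2 higher. Of all genes tested, 24.5% were called lower and 24% higher.

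**Figure D2:**
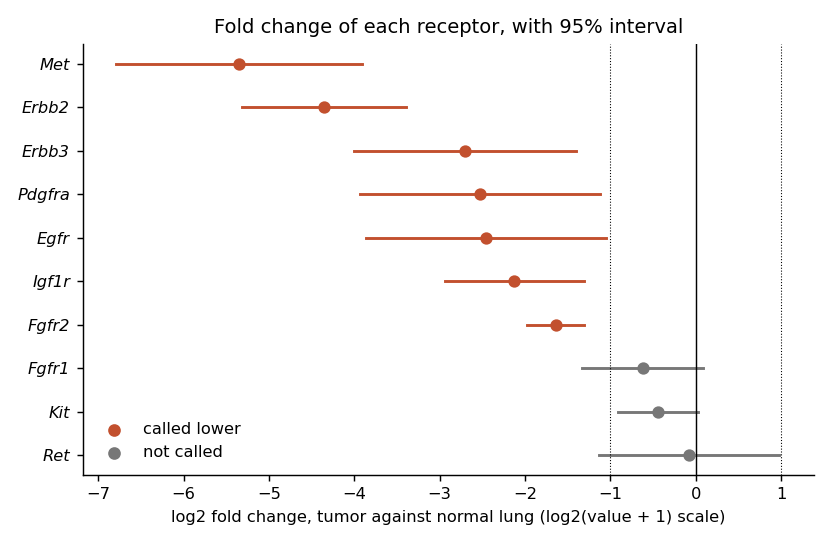
Log2 fold change, tumor against normal lung (horizontal axis, log2(value + 1) scale), of each receptor with its 95% interval as a line; dotted lines mark the fold limit of 1 in either direction and the solid line no change. The 7 receptors called lower (red) run from -5.35 for Met to -1.64 for Fgfr2, and the intervals of Kit, Ret and Fgfr1 (grey) include 0.

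Of the FGF receptors, Fgfr2 fell and Fgfr1 was not called. Fgfr2 (ENSMUSG00000030849) had 7316, 6583, 5327, 5792 and 7634 normalized counts across normal lungs 1 to 5 and 2714, 1576, 1893, 2557, 2100, 2078 and 1837 across tumors 1 to 7. It was the most even of the 10 among tumors, with its highest tumor 1.72-fold above its lowest. It went from 6530 ± 979 (SD, n = 5) to 2108 ± 403 (SD, n = 7), a log2 fold change of -1.64 (SE 0.16, limma adjusted p = 1.03e-06), or 3.12-fold lower as fitted. Exons of Fgfr2 and Ctbp2 on the same strand share 314 of the 10328 exon bases of Fgfr2, so a small part of its count is uncertain. Fgfr1 (ENSMUSG00000031565), the FGF receptor more typical of mesenchymal and neural cells, had 1296, 900, 1121, 965 and 1728 normalized counts across normal lungs 1 to 5. Tumors 1 to 7 had 384, 649, 741, 1001, 482, 884 and 1863, with 5 below every normal lung and tumor 7 above all of them. Its log2 fold change of -0.62 (SE 0.33, 95% interval -1.33 to 0.09) was not called (limma adjusted p = 0.117), and without tumor 7 it was -0.83 with a limma adjusted p of 0.0119, still short of the fold limit.

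Most FGF ligands were read at low levels. Of 15 listed, 13 were in the table and 9 were tested, with 3 called higher, 3 lower and a median log2 fold change of -0.13. Fgf10, the main ligand of the epithelial form of FGFR2 in lung, had 347 to 443 normalized counts in normal lungs and 0 to 117.3 in tumors, 3 of them at or under 3 reads (log2 fold change -5.32, SE 0.98, limma adjusted p = 3.87e-04). Fgf18 fell by 3.64 on the log2 scale (SE 0.35, limma adjusted p = 1.35e-06). Fgf17 rose, but only to 22.4 ± 14.6 normalized counts (SD, n = 7), with all normal lungs at or under 3 reads. Fgfr3, a further FGF receptor singled out after its values were seen, was called lower as well (-3.30, SE 0.33, limma adjusted p = 1.83e-06).

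Igf1r (ENSMUSG00000005533), the receptor for insulin-like growth factors, had 4398, 3894, 2794, 3407 and 4555 normalized counts across normal lungs 1 to 5. Tumors 1 to 7 had 264, 1615, 764, 939, 592, 1379 and 1383, all below the lowest normal lung. Igf1r went from 3810 ± 725 (SD, n = 5) to 991 ± 489 (SD, n = 7), a log2 fold change of -2.12 (SE 0.38, limma adjusted p = 2.87e-04). Its ligand Igf1 was above the normal lungs in 5 tumors but was not called. Normal lungs had 335 to 1051 normalized counts of Igf1, tumors 1 and 2 had 156 and 237, and tumors 3 to 7 had 2179 to 6735. The limma log2 fold change of Igf1 was 1.55 (SE 0.86, adjusted p = 0.133), while edgeR gave 2.26 and called it (adjusted p = 0.0220), and without tumor 1 limma gave 2.11 (adjusted p = 0.0181). Over the 24 alternatives the log2 fold change of Igf1 ran from 0.032 to 2.29, and 19 of them did not call it. The binding proteins, which hold IGFs in the tissue fluid, moved in both directions. The list of 8 tested IGF genes had 2 called higher and 4 lower, beside 24% and 24.5% of all genes tested. Igfbp5 had the highest mean count of the list over all samples, without division by gene length. In normal lung it was not the highest, since Igfbp2 had a mean of 8836 there. Igfbp5 rose from 7019 ± 2862 (SD, n = 5) to 50630 ± 28740 normalized counts (SD, n = 7), a log2 fold change of 2.76 (SE 0.40, limma adjusted p = 5.54e-05). Igfbp2 (-4.78, SE 0.55) and Igfbp6 (-6.15, SE 1.05) were called lower, with limma adjusted p = 6.50e-06 and 2.08e-04. Igfbp1 stood at 0 in all 5 normal lungs and at 9.53 to 65.4 normalized counts in tumors.

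Pdgfra (ENSMUSG00000029231), the receptor for PDGF-A and other PDGF dimers, had 4616, 4322, 3783, 3861 and 6230 normalized counts across normal lungs 1 to 5. Tumors 1 to 7 had 91.8, 368, 2949, 1779, 1193, 1040 and 781, a 32.1-fold range with tumor 1 lowest and tumor 3 highest. All tumors were below all normal lungs, and the mean went from 4562 ± 993 (SD, n = 5) to 1172 ± 958 (SD, n = 7), a log2 fold change of -2.53 (SE 0.65, limma adjusted p = 0.00440). Fibroblast markers had another order across the tumors than Pdgfra. Their sum was 6579 to 19990 normalized counts in normal lungs and 3353, 9433, 3042, 20040, 3485, 9797 and 30410 in tumors 1 to 7, with 1 of 6 markers called lower. Tumor 3, which had the most Pdgfra, had the lowest sum. Its Dcn was 34.7 normalized counts (normal lungs 1233 to 2146) and its Lum 1.98 (119 to 333). The other markers of the list fell less or not at all in tumor 3. Col1a1 was 993 (normal lungs 561 to 3513), Col1a2 922 (1429 to 5122), Col3a1 760 (1356 to 5281) and Pdgfrb 329 (1781 to 4415). The part of fibroblasts in the Pdgfra values was not tested. Of the PDGF ligands, 3 of 4 were called lower, beside 24.5% of all genes tested, and the median log2 fold change was -3.54. Pdgfb, made largely by endothelium, changed by -5.10 (SE 0.67, limma adjusted p = 2.15e-05), Pdgfd by -3.80 (SE 0.62, limma adjusted p = 1.35e-04) and Pdgfa by -3.27 (SE 0.29, limma adjusted p = 6.36e-07), while Pdgfc was not called (-0.29, limma adjusted p = 0.663).

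To compare levels between receptors, normalized counts were divided by the length of each gene's annotated exons in kilobases. In normal lung the order was Fgfr2 (mean 632 normalized counts per kilobase), Pdgfra (455), Kit (392), Igf1r (227), Erbb3 (205), Met (205), Erbb2 (165), Fgfr1 (122), Ret (92.2) and Egfr (42.4). Among neighbours in this order, the ranges over the 5 normal lungs were separate for Kit and Igf1r and for Ret and Egfr, and they overlapped for the others. In tumors the order was Kit (303), Fgfr2 (204), Ret (121), Pdgfra (116.9), Fgfr1 (86.9), Igf1r (59.0), Erbb3 (43.2), Egfr (11.6), Erbb2 (9.41) and Met (8.90), and the ranges of all neighbours overlapped over the 7 tumors. By this length Met had the sixth highest mean in normal lung and the lowest in tumors. With the longest annotated transcript in place of all exons, a length tried after seeing the data, the order changed. Mean shares of the summed level in tumors were then 0.60% for Erbb2 and 0.64% for Met, against 0.99% and 0.98% with all exons. Ret, at 8.73%, then came below Fgfr1 at 10.8%, against 11.9% and 9.52% with all exons. The level summed over the 10 receptors was 2260 to 3011 normalized counts per kilobase in normal lungs and 719 to 1375 in tumors, which do not overlap.

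Within that sum, the share of Kit was larger in every tumor than in any normal lung. Kit made up 13.8% to 19.8% of the summed level in normal lungs and 24.9% to 41.1% in tumors. Fgfr2 made up 22.4% to 26.4% in normal lungs and 18.3% to 24.2% in tumors. Fgfr2 was highest in 5 of 5 normal lungs and Kit in 7 of 7 tumors, the latter depending on the length used. With the longest annotated transcript in place of all exons, a length tried after seeing the data, Kit was highest in 3 of 7 tumors and Fgfr2 in the others. The ratio of Kit to Fgfr2 within a sample does not depend on depth, and it was 0.522 to 0.886 in normal lungs and 1.10 to 2.15 in tumors. With the other length it was 0.380 to 0.646 and 0.804 to 1.57, so the groups stayed apart with either length. These shares follow from the changes above and were not tested.

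**Figure D3:**
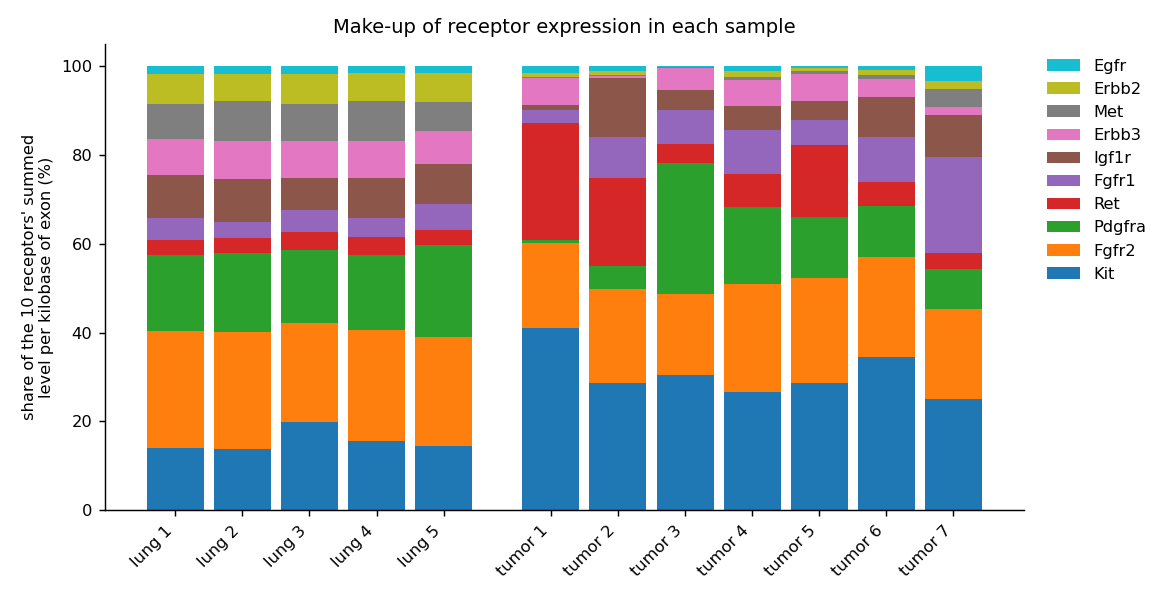
Share of each receptor (vertical axis, percent) in the summed level per kilobase of exon of the 10 receptors, in each of 5 normal lungs and 7 tumors (bars); colors are receptors. The bars of the normal lungs are nearly alike, with Fgfr2 widest, while Kit is widest in every tumor and the rest differ from tumor to tumor, with Ret at 16.3% to 26.3% in tumors 1, 2 and 5, Pdgfra at 29.4% in tumor 3 and Fgfr1 at 21.6% in tumor 7.

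The tumors differed in which receptors they held. Tumor 1 had the highest value of 4 receptors (Erbb3, Kit, Ret and Fgfr2) and the lowest of 3 (Fgfr1, Igf1r and Pdgfra). Tumor 7 had the highest of 4 others (Egfr, Erbb2, Met and Fgfr1) and the lowest Ret. Tumor 3 had the lowest Egfr, Erbb2 and Met and the highest Pdgfra. Tumor 2 had the lowest Erbb3, Kit and Fgfr2 and the highest Igf1r. In tumor 7 markers of other cells were also high. Leukocyte markers summed to 18230 normalized counts there, against 448 to 4658 in the other tumors and 7976 to 14700 in normal lungs. Cardiac muscle markers summed to 32140 in tumor 7, against 114 to 2040 in the other tumors and 76.2 to 3209 in normal lungs, and its neuroendocrine sum of 19210 was the lowest of the tumors. The part of these cells in the Egfr, Erbb2, Met and Fgfr1 values of tumor 7 was not tested. Without tumor 7 the log2 fold changes were -2.77 for Egfr, -4.54 for Erbb2, -5.82 for Met and -0.83 for Fgfr1, and 7 receptors were still called lower.

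Genes with a pattern most like that of Met, Pdgfra and Egfr, the receptors with the largest spread among tumors, were looked up among 16473 genes with a mean log2 value of at least 4. Pearson correlations of log2 values over the 12 samples are given as a description, since all points share the contrast of tissue. For Met they were Gstt2 (r = 0.998), Sytl2 (0.993) and Cmklr1 (0.993), and over the 7 tumors alone the values were 0.997, 0.962 and 0.988. For Pdgfra they were Foxf2 (0.987), Podxl (0.974) and Atoh8 (0.969), with 0.981, 0.978 and 0.972 over the tumors alone. For Egfr they included Wwp2 (0.976) and Ampd3 (0.974), with 0.962 and 0.951 over the tumors alone.

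Beyond the members' own ligands, 4 lists of genes of the same pathways were counted. Of all genes tested, 24% were called higher and 24.5% lower. Of 42 other receptor tyrosine kinases tested, 11 were called higher and 18 lower, with a median log2 fold change of -0.92. The largest decrease was that of Kdr, the VEGF receptor of endothelium (-5.07, SE 0.38, limma adjusted p = 1.19e-07). The largest increases were in ephrin receptors. Ephb2 rose from 91.8 ± 43.9 (SD, n = 5) to 4388 ± 1598 normalized counts (SD, n = 7), a log2 fold change of 5.61 (SE 0.31, limma adjusted p = 6.71e-09). Epha5 and Epha8 rose by 7.18 (SE 0.79) and 6.83 (SE 0.69) on the log2 scale, from means of 2.09 and 2.77 to 498 and 322 normalized counts (limma adjusted p = 4.35e-06 and 2.04e-06). With 4 and 3 of the normal lungs at 3 reads or fewer, the size of these changes depended on the setting, from 4.89 to 8.76 for Epha5 and from 4.46 to 8.89 for Epha8 over 24 alternatives, and all called both higher.

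Most of the shared machinery downstream of the receptors was not called. Of 35 adaptors and transducers of the RAS-ERK and PI3K-AKT pathways, 28 were not called, 4 were called higher and 3 lower. Of all genes tested, 24% were called higher and 24.5% lower. The median log2 fold change of the 35 was 0.02. Ptpn11, the phosphatase that links receptors to RAS and the member of the list with the highest mean, went from 4196 ± 287 (SD, n = 5) to 4291 ± 671 normalized counts (SD, n = 7). The exceptions included the adaptor Shc2, which rose by 3.78 on the log2 scale (SE 0.32, limma adjusted p = 3.04e-07), and the docking protein Gab1, with a change of -1.68 (SE 0.16, limma adjusted p = 1.21e-06). Irs4, a docking protein, stood at 0 in all 5 normal lungs and reached 2.38 to 28.3 normalized counts in tumors.

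Target genes of ERK signalling were mostly lower, and negative regulators were about as often called lower as not called. Of 21 negative regulators tested, 10 were called lower and 1 higher, beside 24.5% and 24% of all genes tested. The median log2 fold change of the 21 was -0.96. Spry1, a feedback inhibitor induced by FGF signalling, changed by -3.30 on the log2 scale (SE 0.25, limma adjusted p = 1.02e-07). Cblc, a ubiquitin ligase for receptors, changed by -3.35 (SE 0.34, limma adjusted p = 1.92e-06), and Il17rd, an inhibitor of FGF signalling, by -2.47 (SE 0.38, limma adjusted p = 7.92e-05). The one higher was Spred3 (1.49, SE 0.27, limma adjusted p = 3.36e-04), named after its value was seen. All 10 genes of the ERK output list were called, 8 lower and 2 higher, beside 24.5% and 24% of all genes tested. The median of the list was -2.44. Ccnd1, which encodes cyclin D1, changed by -4.65 (SE 0.39, limma adjusted p = 2.95e-07). Etv5, a transcription factor downstream of FGF receptors, changed by -4.37 (SE 0.46, limma adjusted p = 2.74e-06), and Dusp6, a phosphatase of ERK, by -1.74 (SE 0.44, limma adjusted p = 0.00394). The call of Dusp6 was lost with the Y-linked covariate (log2 fold change -1.36, limma adjusted p = 0.0693). The 2 higher, named after their values were seen, were Etv4 (3.06, SE 0.53, limma adjusted p = 2.17e-04) and Dusp4 (1.35, SE 0.44, limma adjusted p = 0.0163). Exons of Ccnd1 share 1100 of 4709 bases with a gene on the opposite strand, so its count is uncertain. Such overlaps cover 26.1% of the exon bases of Pdgfa and 24.4% of those of Spry1. Spry2, Spry4, Epha2 and Epha4 belong to more than 1 of these lists, and genes of a list are not independent of each other. The parts of alveolar and endothelial cells in these changes were not tested.

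**Figure D4:**
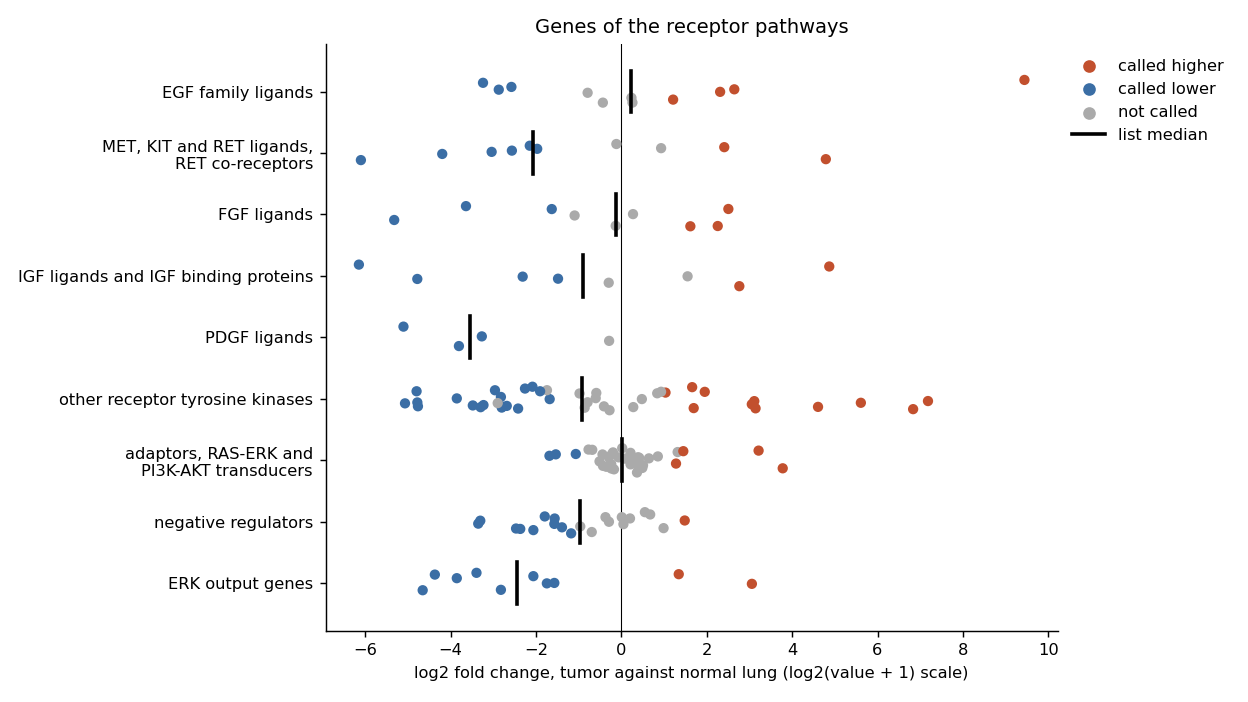
Log2 fold change, tumor against normal lung (horizontal axis, log2(value + 1) scale), of every tested gene in 9 lists of receptor ligands, other receptors and downstream genes (rows); red points were called higher, blue lower and grey not called, and black bars are list medians. Adaptors and transducers cluster near 0 (median 0.02), while ERK output genes (median -2.44) and PDGF ligands (median -3.54) lie mostly to the left.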

How the data were processed

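Messenger RNA was measured in 5 normal lungs and 7 tumors. The authors deposited a normalized count signal with 1 column per sample, not scaled by gene length. All values (100%) of each column came out as whole reads within 0.001 read once divided by the worth of 1 read, which gave the depth behind each value. The submitters' processing notes name featureCounts, DESeq2 and the build GRCm39 with no versions; the aligner, the annotation and the use of strand are not given in the sources used here. Symbols and exon lengths came from GENCODE M21, with 29982 of the 30399 identifiers matched and 417 unmatched. Its older build allows no gene coordinates here. Reads are not independent molecules, so floors of 3 reads cover counting error only.

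Genes averaging 1 or more normalized counts (23674) entered limma 3.58.1 (lmFit, eBayes with trend, R 4.3.3) as log2(value + 1), with Benjamini-Hochberg adjustment over all of them. A call needed both an adjusted p below 0.05 and a log2 difference of 1 or more in either direction. The design had foreseen this form for normalized values. edgeR 4.0.16 and DESeq2 1.42.0 were alternatives on the whole reads of 18481 genes. The fit was tested on simulated data. Descriptions used numpy 2.4.6 and pandas 2.3.3 under Python 3.11.15, and figures matplotlib 3.10.9.

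The members and lists were chosen with earlier results of these data known. Named are the 10 receptors and, in each list, the 3 called genes with the largest change and the gene with the highest mean, with ligands and co-receptors beside their receptor. Genes outside this rule are introduced as chosen after their values were seen. Of the listed genes, 2 FGF ligands, 1 IGF gene, 2 other receptors and 1 negative regulator were not analysed here, and some genes that meet the naming rule or belong to a marker list are not reported here. Replicate numbers were given in listing order and pair nothing. Alternatives covered other pseudocounts and filters, scaling, count tests, tumors of 1 title number averaged or correlated, leaving out the trachea-titled tumors, a Y-linked covariate, and leaving out each sample in turn.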

Additional observations from a re-analysis of the deposited data

Results flagged for a closer look

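Each receptor was examined for a sample that stands apart from its group, in normal lungs and in tumors separately, by the 95% limit of Dixon's ratio. Of these 20 groups 1 passed, which is the number expected by chance. It was Kit in tumor 1, with a log2 value of 12.30 against 11.44 in the next tumor and 10.85 in the lowest, a ratio of 0.594. Tumor 1 was also the only tumor with Y-linked expression near that of normal lung, and its title holds a word for trachea.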

How the results depend on the processing

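The count of receptors called lower was 7 in 23 of 24 alternatives and 6 with the Y-linked covariate, where Egfr was not called, and the count called higher was 0 in all 24. Each of the 7 kept a negative log2 fold change in all 24 alternatives, from -5.87 to -3.72 for Met, -4.71 to -4.01 for Erbb2, -2.93 to -2.03 for Erbb3, -3.50 to -1.91 for Pdgfra, -3.12 to -1.86 for Egfr, -2.61 to -1.84 for Igf1r and -1.71 to -1.36 for Fgfr2. Kit (-0.60 to -0.15) and Fgfr1 (-0.95 to -0.41) were called in none. Without the trachea-titled tumors, Kit had -0.55 with a limma adjusted p of 0.00643 and Fgfr1 -0.68 with 0.0207, both short of the fold limit.

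Ret was called in none and had no stable sign. Its log2 fold change was 0.13 under equal totals, 0.38 in edgeR, 0.38 in DESeq2, 0.42 with same-numbered tumors averaged, 0.084 with them treated as correlated and 0.66 with the Y-linked covariate. Leaving out 1 sample gave -0.42 (without tumor 1) to 0.17 (without tumor 7), with positive values also without tumor 3 (0.083) or tumor 6 (0.059). The cause was not tested. Equal totals moved the median log2 fold change of all genes from 0.04 to 0.24, so Ret stayed below that median there. The number of negative regulators called higher was 1, and 2 or 3 in 8 alternatives. Nrg2 was called lower without the trachea-titled tumors (-1.06, limma adjusted p = 0.0111), Btc lost its call with the Y-linked covariate (-2.27, limma adjusted p = 0.0840), and Irs4 lost its call with a pseudocount of 10. No paired analysis was possible because replicate numbers were given in order of listing and the labels pair no samples.

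Low reads limit the lowest values, such as Met and Egfr in tumor 3 with 7 and 10 reads. Strand use is not stated, so genes whose exons overlap are uncertain. The 7 tumors carry 4 distinct title numbers, and the consensus correlation of tumors with the same number was 0.304.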
